A study of Homo sapiens with 9 samples.

Results

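YAP and TAZ are transcriptional coactivators that carry no DNA-binding domain of their own and act on genes through the TEAD factors. In the Hippo pathway the LATS kinases phosphorylate YAP and TAZ and keep them out of the nucleus, and cell contact, stiffness and the actin cytoskeleton set how much of them is nuclear. Wnt ligands that do not act through β-catenin can also reach YAP and TAZ through frizzled receptors and G proteins, which is why these genes were examined in cells in which the receptor gene *FZD6* was knocked down. The 10 genes chosen by symbol were the coactivators *YAP1* and *WWTR1* (which encodes TAZ), the TEAD factors *TEAD1* and *TEAD4*, the kinases *LATS1* and *LATS2*, and the target genes *CCN1*, *CCN2*, *ANKRD1* and *AMOTL2*. They were 10 of the 12509 genes tested. The rule names symbols and uses no measured value, but it was set with earlier results of these data known. YAP and TAZ are regulated largely as proteins, by phosphorylation and location, and RNA levels do not measure either.

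The cells were DU145, an established prostate cancer line, and all groups share this background and are labelled wild type. The 9 RNA-seq libraries comprise 3 from cells with a scrambled hairpin, the control, 3 from cells with *FZD6* shRNA1 and 3 from cells with *FZD6* shRNA2, and the labels name no drug. The methods describe these hairpins in lentiviral pLKO.1 vectors for constitutive expression and in a doxycycline-inducible form, and which was used for the RNA-seq is not given in the sources used here. The labels call each group a triplicate and do not say whether these are separate cultures, so p-values measure the spread between these libraries only. Expression is given as FPKM, the fragments mapped to a transcript scaled by its length and by the size of the library, as the authors calculated it, and was summed over the RefSeq transcripts of a gene. Differences are on the scale log2(FPKM + 1), which understates the change of low genes, with p-values from limma adjusted by the Benjamini-Hochberg method over all 12509 genes.

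*FZD6*, the targeted gene, was at 20.9, 20.5 and 20.0 FPKM in control libraries, 9.47, 10.2 and 9.80 with shRNA1, and 7.84, 8.79 and 7.69 with shRNA2. Its log2 difference from control was −0.99 for shRNA1 and −1.24 for shRNA2 (limma adjusted p = 0.000329 and 4.51e-05). Depth was estimated from the confidence bounds of the FPKM at 32.1 to 40.1 M fragments per library. The epithelial markers *EPCAM*, *KRT8*, *KRT18*, *KRT19* and *CDH1* summed to 666 to 692 FPKM in control libraries, 714 to 728 with shRNA1 and 665 to 692 with shRNA2. The members of this sum did not move alike. Mean *EPCAM* was 17.65, 20.38 and 22.38 FPKM in control, shRNA1 and shRNA2 cells, and mean *CDH1* was 4.68, 3.91 and 3.45. Limma called 2 of the 5 higher and 1 lower with knockdown, where 13.5% and 7.1% of all genes were. Of 9 markers of fibroblasts, immune cells and endothelium, 8 stayed under 1 FPKM in every library. The exception was *CD68*, and the summed FPKM of the 9 was 17.3 to 18.5 in control cells, 21.6 to 23.4 with shRNA1 and 25.5 to 26.1 with shRNA2. The part of these markers in the results was not tested. Across 12194 genes, which are not independent replicates, the log2 difference fell with transcript length (Spearman correlation −0.414 with shRNA1, −0.341 with shRNA2 and 0.0528 between the hairpins). Values with each library's length trend removed are therefore given below where they end or add a call of the 10 genes, *FZD6* or a gene named by rule. For other genes named below, results under alternative settings are not given. In bulk RNA, fewer cells of a type and less RNA per cell cannot be told apart.

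All 10 genes were expressed in every library. In control cells the order by mean FPKM, which is scaled for length, was *CCN1* (89.4), *AMOTL2* (49.3), *WWTR1* (33.1), *ANKRD1* (32.4), *TEAD1* (24.5), *YAP1* (22.0), *TEAD4* (19.5), *CCN2* (13.3), *LATS2* (10.6) and *LATS1* (5.81). Neighbors in this order did not overlap between control libraries, except for *WWTR1* and *ANKRD1*. *TEAD1*, *YAP1* and *TEAD4* followed each other in this order without overlap in control libraries only. With shRNA1 *YAP1* (20.6 to 21.1 FPKM) lay above *TEAD1* (19.9 to 20.2). With shRNA2 *TEAD4* (20.6 to 22.2) lay above *YAP1* (16.4 to 18.2). The estimated number of fragments behind a value ran from 897 to 1292 for *CCN2*, the gene with the fewest in any library, and from 6615 to 9249 for *CCN1*.

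**Figure D1:**
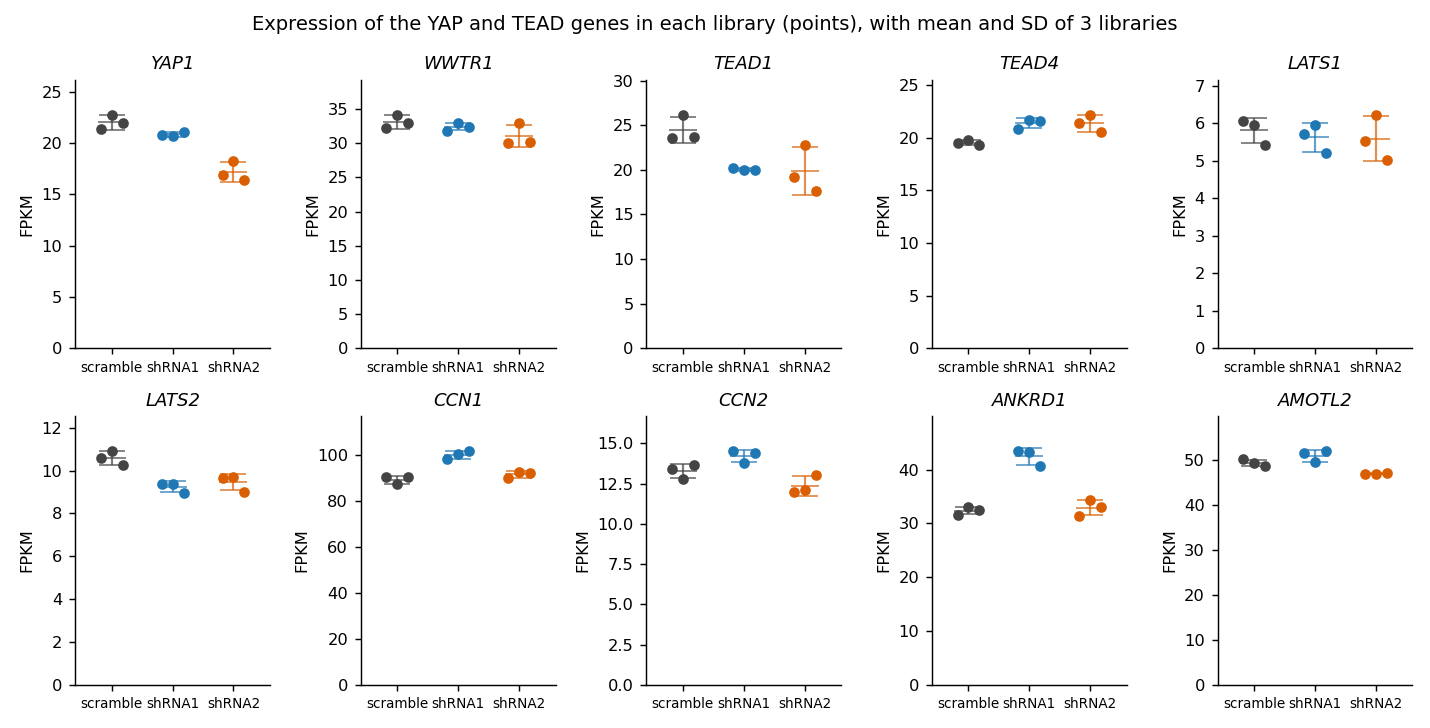
FPKM (y axes, each from 0) of the 10 genes in each library (points) of control cells (scramble), *FZD6* shRNA1 and *FZD6* shRNA2, with the mean and SD of 3 libraries as bars. *YAP1* was lowest with shRNA2, *ANKRD1* and *CCN1* were highest with shRNA1, and *TEAD1* and *LATS2* were lower with both hairpins.

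With the libraries of both hairpins pooled, *TEAD4* was called higher and *TEAD1* and *LATS2* were called lower, and the other 7 of the 10 genes did not pass the test. Limma called 20.6% of all genes tested in this comparison, 13.5% higher and 7.1% lower. The 6 knockdown libraries did not overlap the 3 control libraries for 4 of the 10 genes, against 25.9% of all genes. The median log2 difference of the 10 was −0.03, against 0.03 over all genes. With shRNA1 alone 3 were higher and 1 lower, where 18.8% of all genes were called, 11.7% higher and 7.19% lower. With shRNA2 alone 1 was higher and 3 were lower, where 26.7% were called, 15.3% higher and 11.4% lower. Both comparisons use the same 3 control libraries. The libraries did not overlap for 7 of the 10 genes with shRNA1 (46.8% of all genes), for 5 with shRNA2 (40.6%) and for 5 between the hairpins (26.4%). Between the hairpins 5 of the 10 were lower with shRNA2 than with shRNA1 and none was higher, where 4.79% of all genes were lower, 1.92% higher and 6.71% differed in either direction. At an unadjusted p under 0.05 the count of higher genes was also 0. The 5 were *YAP1* and the 4 target genes.

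**Figure D2:**
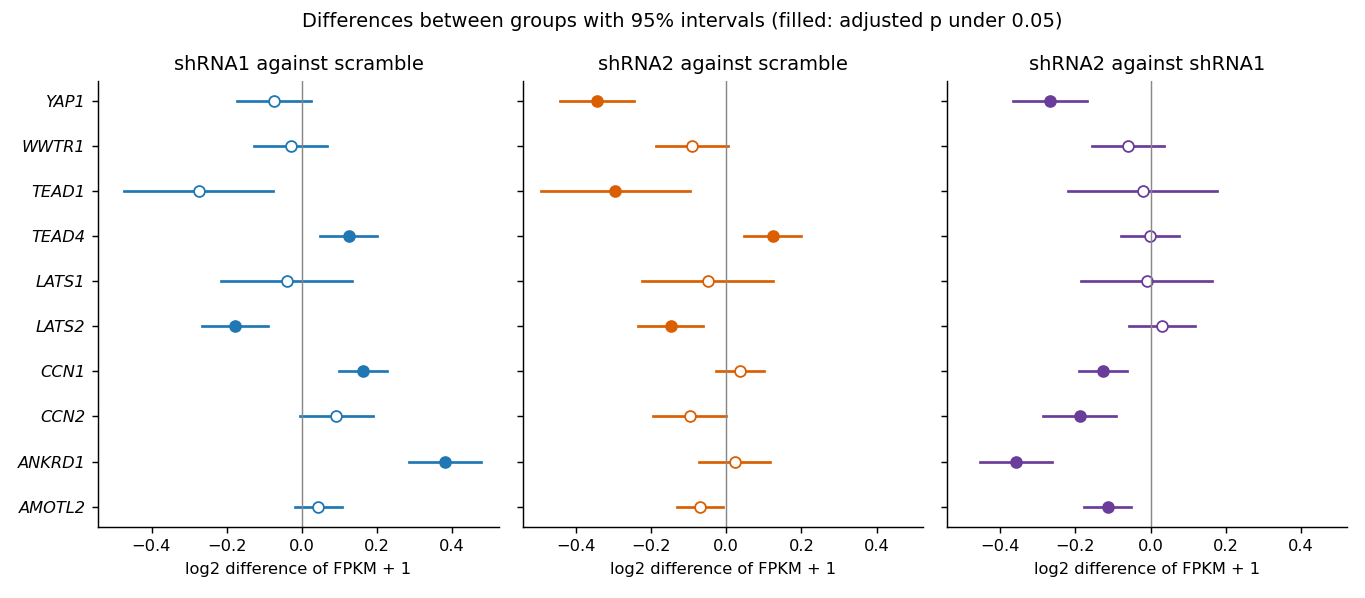
Log2 difference of FPKM + 1 (x axis) for each of the 10 genes in 3 comparisons, with 95% confidence intervals as lines and filled points for a limma adjusted p under 0.05. The 5 filled points in the panel for shRNA2 against shRNA1 all lie below 0 and belong to *YAP1*, *CCN1*, *CCN2*, *ANKRD1* and *AMOTL2*.

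*YAP1*, which encodes the coactivator YAP, lies on chromosome 11 from 102110447 to 102233424 (GRCh38, as are all coordinates here). It was measured at 21.3, 22.7 and 21.9 FPKM in control libraries, 20.8, 20.6 and 21.1 with shRNA1, and 16.8, 18.2 and 16.4 with shRNA2. The shRNA2 libraries were the 3 lowest, and the shRNA1 libraries lay just under the control libraries without overlap. With shRNA2 *YAP1* fell by 22.1% of its mean, a log2 difference of −0.34 (SE 0.042, limma adjusted p = 0.00197). This call was kept in all 20 alternative analyses. With shRNA1 the log2 difference was −0.07 (95% interval −0.17 to 0.02, limma adjusted p = 0.251). The difference between the hairpins was −0.27 (SE 0.042, limma adjusted p = 0.0115), and without shRNA1 replicate 3 its adjusted p was 0.0512. The pooled value of both hairpins, −0.21, was not called (limma adjusted p = 0.121).

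The RefSeq transcripts of *YAP1* share most of their sequence, and Cufflinks divides reads between them. Of the 9 listed, NM_001130145 held a median of 40.5% of the FPKM of the gene, NM_001195044 30.4% and NM_001282101 15.2%. NM_001130145 was at 10.1 ± 2.03 FPKM (SD, n = 3) in control cells, 7.57 ± 2.43 with shRNA1 and 6.38 ± 0.807 with shRNA2. NM_001195044 was at 4.58 ± 1.33, 5.87 ± 1.18 and 5.40 ± 0.454 FPKM (SD, n = 3 each). None of the 4 *YAP1* transcripts tested was called with both hairpins pooled (lowest limma adjusted p = 0.223), where the gene sum was not called either. Transcripts were not tested for shRNA2 alone.

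**Figure D3:**
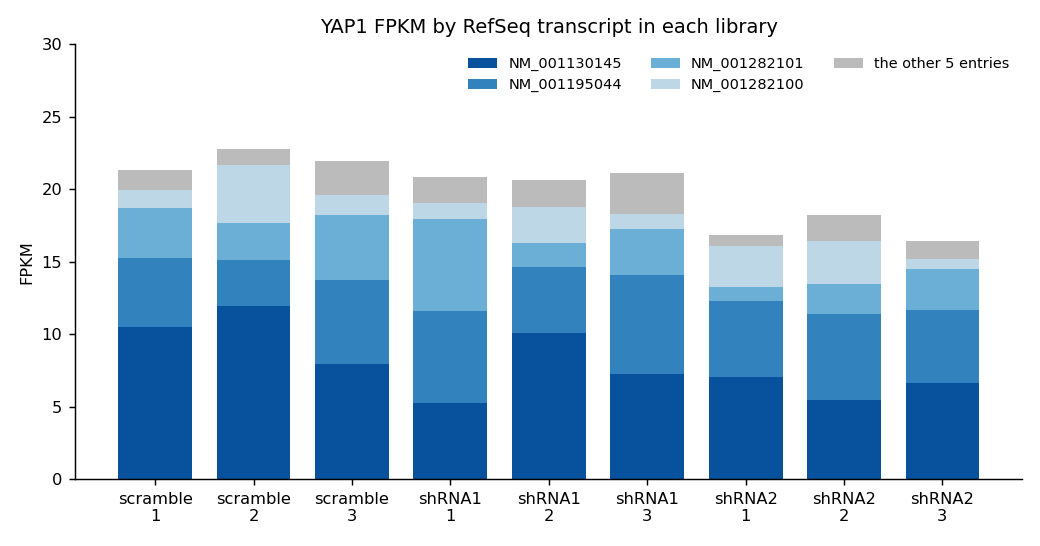
FPKM of *YAP1* (y axis) in each of the 9 libraries (bars), divided by RefSeq transcript. The 3 shRNA2 bars are the lowest, at 16.4 to 18.2 FPKM, and the split between transcripts varies between libraries of the same group.

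*WWTR1*, on chromosome 3 from 149517235 to 149724788, encodes TAZ, the paralog of YAP. Its libraries overlapped in every comparison, at 32.2 to 34.2 FPKM in control cells, 31.9 to 33.0 with shRNA1 and 30.1 to 32.9 with shRNA2. The log2 difference with shRNA2 was −0.09 (95% interval −0.19 to 0.01, limma adjusted p = 0.144). Without shRNA2 replicate 2, the highest of its group, it was −0.13 (limma adjusted p = 0.0198). The ratio of *WWTR1* to *YAP1* was 1.51 ± 0.00366 (SD, n = 3) in control cells, 1.56 ± 0.0364 with shRNA1 and 1.81 ± 0.0270 with shRNA2. Every knockdown library was above every control library, a log2 difference of 0.15 in the ratio of FPKM + 1 (two-sided exact permutation test, p = 0.0238, adjusted p = 0.0357 over 3 ratios). No smaller p is possible for 6 libraries against 3. Without any 1 control library the exact test gave 0.0714, which is the smallest p possible for 6 libraries against 2.

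The TEAD factors moved in opposite directions. *TEAD1*, on chromosome 11 from 12674421 to 12944737, was at 23.6, 26.2 and 23.7 FPKM in control libraries, 20.2, 20.0 and 19.9 with shRNA1, and 19.2, 22.8 and 17.6 with shRNA2. All knockdown libraries were below all control libraries, and shRNA2 replicate 2 came closest. *TEAD1* fell by 18.5% of its mean, a log2 difference of −0.28 (SE 0.070, limma adjusted p = 0.0237). The adjusted p was 0.0601, 0.104 and 0.0557 without control replicate 1, 2 and 3. With shRNA1 the log2 difference was −0.27 (limma adjusted p = 0.0615) and with shRNA2 −0.30 (0.0387). The first was called in 7 of 20 alternative analyses, those with a filter of 5 FPKM, median centring, quantile normalization, the replicate number as a block or the libraries of both groups only, or without shRNA2 replicate 2 or 3 (0.0106 to 0.0472). The call with shRNA2 was lost in 8 of the 9 fits that left out 1 library, all but that without shRNA2 replicate 2 (adjusted p 0.0605 to 0.118), and also with no filter on low genes (0.069) and when the shRNA1 libraries were left out of the fit (0.1). Between the hairpins the difference was −0.02 (95% interval −0.22 to 0.18).

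*TEAD4*, on chromosome 12 from 2959397 to 3040676, was at 19.5, 19.8 and 19.3 FPKM in control libraries, 20.9, 21.7 and 21.6 with shRNA1, and 21.4, 22.2 and 20.6 with shRNA2. All knockdown libraries were above all control libraries, and the hairpins overlapped with almost the same mean, 21.4 FPKM each. The log2 difference with knockdown was 0.12 (SE 0.029, limma adjusted p = 0.0191), or 9.45% of the mean. It was 0.03 (limma adjusted p = 0.612) with each library's length trend removed, and the same removal ended the call for each hairpin (adjusted p = 0.72 with shRNA1 and 0.584 with shRNA2). The adjusted p was 0.0707, 0.0592 and 0.0743 without control replicate 1, 2 and 3. *TEAD4* has the shortest transcript of the 10 genes, 1690 bases, and *TEAD1* the longest, 8477 bases. *TEAD1* kept its call with the length trend removed, at −0.20 (limma adjusted p = 0.0232). The call for *TEAD4* was lost in 7 of the 9 fits without 1 library for shRNA1, all but those without shRNA2 replicate 2 or 3 (adjusted p up to 0.12). For shRNA2 it was lost in 5, those without any control replicate, shRNA1 replicate 3 or shRNA2 replicate 1 (up to 0.089). The *TEAD4* call with shRNA1 was also lost with quantile normalization (limma adjusted p = 0.0841). That with shRNA2 was also lost when the shRNA1 libraries were left out of the fit (0.0717).

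In control cells *TEAD1* was the more abundant of the pair. The ratio of *TEAD4* to *TEAD1* was 0.80 ± 0.0374 (SD, n = 3) in control cells, 1.07 ± 0.0303 with shRNA1 and 1.09 ± 0.10 with shRNA2, and it was above 1 in every knockdown library but shRNA2 replicate 2, at 0.973. The log2 difference in the ratio was 0.41 (two-sided exact permutation test, p = 0.0238, adjusted p = 0.0357 over 3 ratios), and 0.23 with the length trend removed (p = 0.0238), an alternative chosen after seeing the data. Without any 1 control library the exact p was again 0.0714, the smallest possible there. *TEAD2* and *TEAD3*, the other TEAD genes, were at 14.9 and 8.33 FPKM in control cells and had log2 differences of −0.01 each (limma adjusted p = 0.92 and 0.916).

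**Figure D4:**
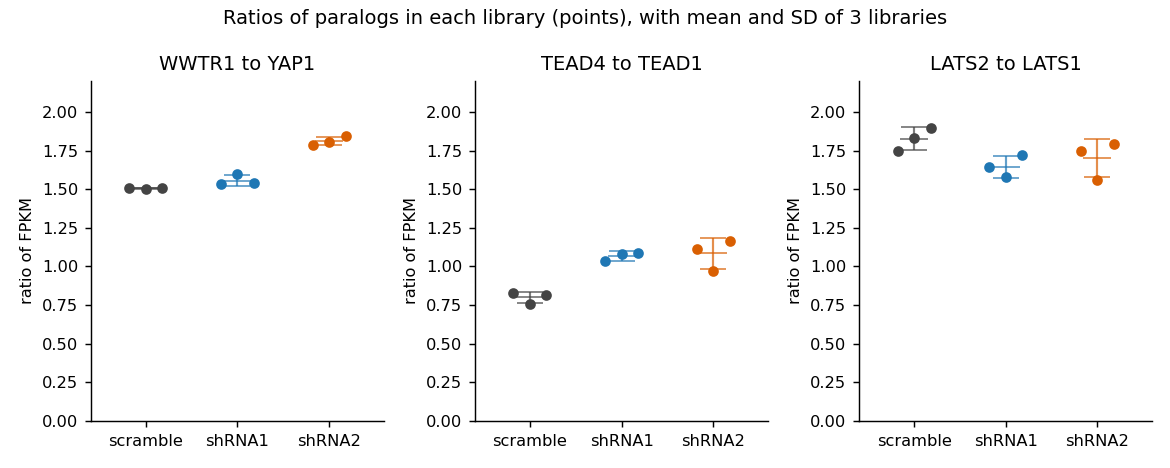
Ratio of FPKM (y axes, from 0) of *WWTR1* to *YAP1*, *TEAD4* to *TEAD1* and *LATS2* to *LATS1* in each library (points), with the mean and SD of 3 libraries as bars. The first ratio stands apart with shRNA2, the second is higher with both hairpins, and the third overlaps between groups.

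The LATS kinases, which phosphorylate YAP and TAZ, were the least abundant of the 10 genes. *LATS2*, which is also a YAP target in a feedback loop, lies on chromosome 13 from 20973036 to 21061586. It was at 10.6, 10.9 and 10.3 FPKM in control libraries, 9.39, 9.38 and 8.94 with shRNA1, and 9.66, 9.70 and 9.01 with shRNA2, with no overlap between knockdown and control. *LATS2* fell by 11.7% of its mean, a log2 difference of −0.16 (SE 0.033, limma adjusted p = 0.0118), and with the length trend removed by 0.14 on the log2 scale (0.0171). Each hairpin gave the call alone, at −0.18 and −0.15 (limma adjusted p = 0.0184 and 0.0243), and the difference between them was 0.03 (95% interval −0.06 to 0.12, limma adjusted p = 0.694). Without control replicate 2 the pooled adjusted p was 0.0624. The call with shRNA1 was lost without control replicate 1 or 2 or shRNA1 replicate 2 or 3 (adjusted p 0.052 to 0.0686), and that with shRNA2 without control replicate 1 or 2 or shRNA2 replicate 3 (0.0633 to 0.0833) and when the shRNA1 libraries were left out of the fit (0.0602).

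*LATS1*, on chromosome 6 from 149658153 to 149718101, ranged over 5.41 to 6.05 FPKM in control libraries, 5.20 to 5.95 with shRNA1 and 5.03 to 6.22 with shRNA2. These ranges overlapped, and the pooled log2 difference was −0.04 (95% interval −0.18 to 0.10, limma adjusted p = 0.641). The ratio of *LATS2* to *LATS1* was 1.83 ± 0.0738 (SD, n = 3) in control cells, 1.65 ± 0.0707 with shRNA1 and 1.70 ± 0.125 with shRNA2. The exact permutation test gave p = 0.0476 for it (two-sided, adjusted p = 0.0476), and p was 0.0714 to 0.143 in 8 of the 9 tests without 1 library, all but that without shRNA2 replicate 3.

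The target genes encode the secreted matrix proteins CCN1 (CYR61) and CCN2 (CTGF), the nuclear ankyrin repeat protein ANKRD1 and the YAP-binding protein AMOTL2, an inhibitor of YAP that is itself induced by it. TEAD factors recognise the letters GGAATG, and the upstream sequence of 3 of these genes is shown. Like *YAP1*, these 3 were lower with shRNA2 than with shRNA1. Against control, however, *YAP1* was called with shRNA2 only (lower), *ANKRD1* with shRNA1 only (higher) and *CCN2* and *AMOTL2* with neither. Over the 9 libraries Pearson's r of log2(FPKM + 1) with *YAP1* was 0.575 for *CCN2*, 0.272 for *ANKRD1* and 0.721 for *AMOTL2*. It was 0.091 for *CCN1*. A part of *YAP1* in the differences of the targets was not tested. The windows are the 250 bases before the RefSeq start site (GRCh38.p14, RefSeq), minus strand, written 5′ to 3′. Capitals mark GGAATG or its reverse complement and TGANTCA, a loose form of the AP-1 site that allows any base at N.
CCN2, chr6:131951373-131951622: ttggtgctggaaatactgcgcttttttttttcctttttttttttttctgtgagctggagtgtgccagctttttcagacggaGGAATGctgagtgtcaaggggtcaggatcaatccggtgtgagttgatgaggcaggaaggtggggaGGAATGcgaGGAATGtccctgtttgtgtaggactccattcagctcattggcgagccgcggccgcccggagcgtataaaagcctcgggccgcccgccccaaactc
ANKRD1, chr10:90921088-90921337: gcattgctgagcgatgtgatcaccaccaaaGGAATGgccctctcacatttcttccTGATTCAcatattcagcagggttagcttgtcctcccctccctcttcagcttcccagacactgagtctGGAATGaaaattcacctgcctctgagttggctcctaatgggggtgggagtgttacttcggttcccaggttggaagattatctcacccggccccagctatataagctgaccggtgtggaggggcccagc
AMOTL2, chr3:134374448-134374697: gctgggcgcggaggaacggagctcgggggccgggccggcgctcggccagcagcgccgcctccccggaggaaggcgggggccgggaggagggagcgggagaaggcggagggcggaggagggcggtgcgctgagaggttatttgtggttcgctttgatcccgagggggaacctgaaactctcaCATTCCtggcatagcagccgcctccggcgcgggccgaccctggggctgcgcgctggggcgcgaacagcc
*CCN2* holds 3 matches to GGAATG, with first bases at −169, −104 and −95 from the start site. *ANKRD1* holds 2, at −220 and −128, beside 1 match to the loose AP-1 form, TGATTCA, at −195. *AMOTL2* holds 1 on the opposite strand in the window of its downstream start site, which is the one printed, and none in that of the upstream one. Of 10 windows of 7 of the genes, 4 held a GGAATG match on either strand, and the fourth was that of *YAP1*. No window was available for *CCN1*, *TEAD1* and *TEAD4*. The share over all 35116 RefSeq windows of this length was 11.9%. It was 6.57% for the loose AP-1 form and 1.16% for the CArG box, which none of the 10 windows held. These are matches of letters only. The genes were picked in part as known TEAD targets, so the count is not a test of an excess over all windows.

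*ANKRD1*, on chromosome 10 from 90912096 to 90921087, had the largest difference of the 10 with shRNA1 and between the hairpins. It was at 31.7, 33.0 and 32.5 FPKM in control libraries, 43.4, 43.3 and 40.7 with shRNA1, and 31.5, 34.3 and 33.0 with shRNA2. The shRNA1 libraries stood above all others, and the shRNA2 and control libraries overlapped. With shRNA1 *ANKRD1* rose by 31.2% of its mean, a log2 difference of 0.38 (SE 0.041, limma adjusted p = 0.00292), and with shRNA2 the difference was 0.02 (95% interval −0.07 to 0.12, limma adjusted p = 0.715). Between the hairpins it was −0.36 (SE 0.041, limma adjusted p = 0.00335). Both calls were kept in all 20 alternative analyses.

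*CCN1*, on chromosome 1 from 85580761 to 85583950, had the same order at a smaller size. It was at 90.3, 87.4 and 90.5 FPKM in control libraries, 98.3, 101 and 102 with shRNA1, and 90.0, 92.9 and 92.3 with shRNA2. The log2 difference was 0.16 with shRNA1 (SE 0.027, limma adjusted p = 0.00941), 0.04 with shRNA2 (95% interval −0.03 to 0.10, limma adjusted p = 0.357) and −0.13 between the hairpins (SE 0.027, limma adjusted p = 0.0358). The rise with shRNA1 was 0.10 with quantile normalization and 0.09 with the length trend removed, and neither was called (limma adjusted p = 0.0644 and 0.0636).

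*CCN2*, on chromosome 6 from 131948176 to 131951372, lay on either side of control. It was at 13.4, 12.8 and 13.7 FPKM in control libraries, 14.5, 13.8 and 14.4 with shRNA1, and 12.0, 12.1 and 13.0 with shRNA2. All shRNA1 libraries were above, and the shRNA2 libraries overlapped the control range from below. Neither hairpin was called against control, at log2 differences of 0.09 and −0.10 (limma adjusted p = 0.164 and 0.123), whereas the hairpins differed by −0.19 (SE 0.042, limma adjusted p = 0.0383). With the length trend removed the difference with shRNA2 was −0.16 and was called (limma adjusted p = 0.0166).

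*AMOTL2*, on chromosome 3 from 134355345 to 134375417, was at 50.04, 49.1 and 48.7 FPKM in control libraries, 51.4, 49.4 and 51.8 with shRNA1, and 46.9, 46.7 and 47.0 with shRNA2. The shRNA2 libraries were the 3 lowest and lay close together. The log2 difference was 0.04 with shRNA1 and −0.07 with shRNA2 (limma adjusted p = 0.28 and 0.0892), and −0.11 between the hairpins (SE 0.027, limma adjusted p = 0.0459). With quantile normalization the difference with shRNA2 was −0.11 and was called (0.0209), and with the length trend removed that between the hairpins was −0.11 and was not (0.0665). Among its transcripts, NM_016201 held a median of 89.5% of the FPKM. NM_001363943 was at 0.636 ± 1.10 FPKM (SD, n = 3) in control cells, 3.32 ± 0.839 with shRNA1 and 4.49 ± 1.04 with shRNA2, and it was the 1 transcript of the 19 tested for these genes that was called (log2 difference 1.75, limma adjusted p = 0.0494, and 3.83 and 5.92 with a pseudocount of 0.1 and 0.01), where 2.01% of all 20729 transcripts were called. That call was lost in 10 of 11 alternative analyses, including each fit without 1 library but that without control replicate 3 (adjusted p 0.0616 to 0.195 where lost), and it depends on how reads were divided between overlapping transcripts.

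Together, the 4 targets had their highest mean with shRNA1. *CCN2* and *AMOTL2* had their lowest with shRNA2, and *CCN1* and *ANKRD1* theirs in control cells. The difference between hairpins for *CCN1* and *CCN2* was lost in 8 of the 9 fits without 1 library each, all but that without shRNA2 replicate 2 for *CCN1* and replicate 3 for *CCN2* (adjusted p 0.0523 to 0.128 and 0.0519 to 0.127), and for *AMOTL2* in all 9 (0.0603 to 0.153). The 3 differences were also lost with quantile normalization and in the fit without control libraries, and those of *CCN2* and *AMOTL2* with median centring. The sign was negative in all 20 alternative analyses of each. The replicate numbers of the labels did not pair the libraries, and with the replicate number as a block *CCN1* and *AMOTL2* were not called either (limma adjusted p = 0.0577 and 0.0655). *FZD6* was also lower with shRNA2 than with shRNA1 (log2 difference −0.25, limma adjusted p = 0.0273). This call was lost in 6 of the 9 fits without 1 library, those without control replicate 2, any shRNA1 replicate or shRNA2 replicate 1 or 3 (0.0523 to 0.0993). It was also lost in the fit without control libraries (0.0928). The part of *FZD6* in the differences of the targets was not tested.

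The genes most like *CCN1* over the 9 libraries, by Pearson's r of log2(FPKM + 1) among 12499 genes, were *RBM3*, *SOCS2* and *NR2C1*, at 0.989, 0.985 and 0.981. Those most like *CCN2* were *SLC9A3-OT1*, *GAL* and *ZFYVE21*, at 0.962, 0.956 and 0.949. With 3 groups of 3 libraries these values mostly follow the order of the group means, and an r over 0.9 was reached by 95 genes for *CCN1* and by 38 for *CCN2*.

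Other genes reported as YAP and TEAD targets moved in both directions. Of 17 listed, 15 were tested, and with knockdown 3 were called higher, 3 lower and 9 neither, against 13.5% higher and 7.1% lower over all genes. Their median log2 difference was −0.09, against 0.03 over all genes. *NT5E*, which encodes the ecto-nucleotidase CD73, was at 36.1 ± 1.14 FPKM (SD, n = 3) in control cells, 44.7 ± 0.784 with shRNA1 and 50.4 ± 3.62 with shRNA2, and rose by a log2 difference of 0.38 (limma adjusted p = 0.00648). *FJX1*, which encodes a secreted homolog of Drosophila four-jointed, rose by 0.18 on the log2 scale (0.00961), and *GADD45A*, a stress-induced growth arrest gene, by 0.21 (0.0105). *GADD45A* was at 0.11 (0.154) with the length trend removed. *ASAP1*, which encodes an Arf GTPase-activating protein, had a log2 difference of −0.26 (limma adjusted p = 0.00573), *CRIM1*, which encodes a transmembrane protein that binds BMPs, one of −0.37 (0.0175), and *IGFBP3*, which encodes a secreted binding protein of IGFs, one of −0.23 (0.0216). The falls of *CRIM1* and *IGFBP3* were lost without any 1 control library, with adjusted p-values of 0.0607, 0.0738 and 0.0506 for *CRIM1* and 0.0913, 0.0717 and 0.0512 for *IGFBP3* without control replicate 1, 2 and 3.

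**Figure D5:**
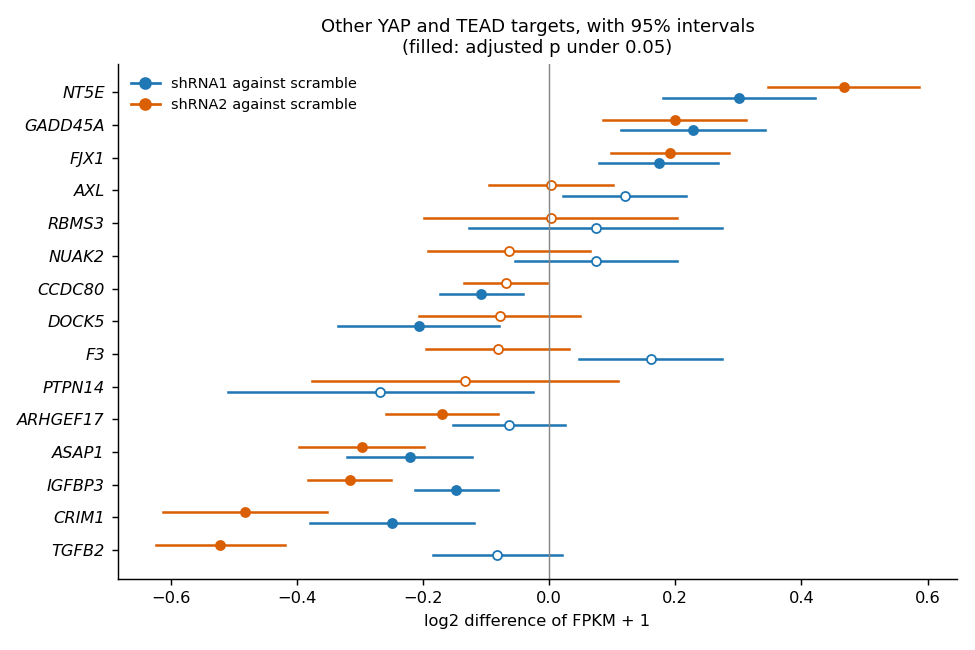
Log2 difference of FPKM + 1 from control (x axis) for the 15 tested genes of the list of other YAP and TEAD targets, with shRNA1 (blue) and shRNA2 (orange), 95% confidence intervals as lines and filled points for a limma adjusted p under 0.05. *NT5E*, *GADD45A* and *FJX1* are higher with both hairpins, *ASAP1*, *IGFBP3* and *CRIM1* are lower with both, and *TGFB2* is lower with shRNA2.

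The split of this list was alike for each hairpin, 3 higher and 5 lower of 15 with shRNA1 (11.7% and 7.19% of all genes) and with shRNA2 (15.3% and 11.4%), but the genes were not all the same. The genes named in the rest of this paragraph were chosen after their values were seen. Lower with shRNA1 but not called with shRNA2 were *CCDC80* and *DOCK5*, and lower with shRNA2 but not called with shRNA1 were *ARHGEF17* and *TGFB2*. Between the hairpins limma called 3 of 15, *TGFB2*, *IGFBP3* and *F3*, all lower with shRNA2, and 0 higher (2 at an unadjusted p under 0.05), where 4.79% of all genes were lower and 1.92% higher. *TGFB2*, which encodes a TGF-β ligand, was at 11.6 FPKM in control cells, 10.9 with shRNA1 and 7.82 with shRNA2, a difference between hairpins of −0.44 on the log2 scale (SE 0.044, limma adjusted p = 0.00191). For *F3*, which encodes tissue factor, it was −0.24 (0.0281), and for *IGFBP3* −0.17 (0.0145). *AXL*, a receptor tyrosine kinase often used as a YAP readout, was at 146 FPKM in control cells, 159 with shRNA1 and 147 with shRNA2, and was not called (lowest limma adjusted p = 0.0856).

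Upstream of LATS, 22 of 23 listed Hippo kinases and adaptors were tested. With knockdown limma called 5 lower and 0 higher (8 lower and 1 higher at an unadjusted p under 0.05), where 7.1% of all genes were lower and 20.6% were called in either direction. The median log2 difference was −0.07, against 0.03 over all genes. *TAOK1* and *TAOK2*, which encode kinases that activate the Hippo kinases, had log2 differences of −0.35 and −0.10 (limma adjusted p = 0.0266 and 0.023), *MAP4K4*, a kinase that acts beside them, of −0.22 (0.0269) and *WWC3*, a member of the KIBRA family of adaptors, of −0.17 (0.0245). The fifth was *MOB1B*, a cofactor of LATS, which was outside the rule for named genes. With the length trend removed *TAOK1*, *TAOK2*, *MAP4K4* and *WWC3* were no longer called (adjusted p 0.061 to 0.0729). Each also lost the call without control replicate 1 or 2, *TAOK1* and *MAP4K4* without replicate 3 as well (adjusted p up to 0.111). With shRNA1 alone 2 of 22 were lower (7.19% of all genes), and with shRNA2 alone 8 were lower and 2 higher, where 11.4% and 15.3% of all genes were (*NF2* and *TAOK3*, the latter also the 1 gene of the list called between the hairpins, higher with shRNA2, at 0.23 and limma adjusted p = 0.0372). The core kinases *STK3* and *STK4* and the adaptor *SAV1* were not called with knockdown (limma adjusted p = 0.312, 0.366 and 0.0838), and *STK3* was lower with shRNA2 alone, at −0.23 (0.0286).

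Of 9 listed partners of YAP and TEAD, 5 were tested and none was called in any comparison (lowest limma adjusted p = 0.0832). Of all genes 20.6% were called with knockdown, 18.8% with shRNA1, 26.7% with shRNA2 and 6.71% between the hairpins. At an unadjusted p under 0.05 limma gave 1 lower with knockdown, 2 lower with shRNA1 and 0 with shRNA2 or between the hairpins. The cofactors *VGLL1* and *VGLL2* were listed at 0 in every library. Of 12 listed STRIPAK and LIM proteins, 11 were tested and limma called 0 with knockdown (1 higher and 1 lower at an unadjusted p under 0.05), where 20.6% of all genes were called. With shRNA2 alone 1 was higher and 1 lower, where 15.3% and 11.4% of all genes were. Between the hairpins 1 was lower, where 4.79% of all genes were. *AJUBA*, an inhibitor of LATS chosen here after its values were seen, was at 32.9 FPKM in control cells, 33.2 with shRNA1 and 25.7 with shRNA2, a log2 difference between hairpins of −0.36 (SE 0.032, limma adjusted p = 0.00129). Of 12 listed polarity and junction genes, 9 were tested and 2 were called lower with knockdown, *SCRIB* by −0.14 and *LLGL2* by −0.24 (limma adjusted p = 0.0321 and 0.0418). Of all genes 7.1% were called lower and 20.6% in either direction. The other listed members of the Scribble polarity module, *DLG1* and *LLGL1*, were not called (0.455 and 0.371). The call of *SCRIB* was lost in 7 of the 9 fits without 1 library, all but those without shRNA1 replicate 1 or shRNA2 replicate 2 (adjusted p 0.0533 to 0.116), and with the length trend removed (0.0773). The call of *LLGL2* was lost in 8, all but that without shRNA1 replicate 3 (0.0523 to 0.149), and with no filter (0.0708).

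Of 13 listed genes of the alternative Wnt route to YAP, 9 were tested. The ligands *WNT5A*, *WNT5B* and *WNT3A* and the receptor *ROR2* did not reach 1 FPKM in any library. *FZD1* was not called (log2 difference −0.04, limma adjusted p = 0.487). *FZD2* and *FZD5* had log2 differences of −0.20 and −0.14 (limma adjusted p = 0.0153 and 0.0282). *FZD2* lost the call without any 1 control library (adjusted p 0.0554 to 0.0603), and *FZD5* lost it without control replicate 1 or 2 or shRNA1 replicate 1 (0.0508 to 0.118), with the length trend removed (0.123) and with a prior trend in the mean level. The coreceptor *ROR1* was at 7.49 FPKM in control cells and had a log2 difference of −0.10 (0.251). The G protein subunit genes *GNA12* and *GNA13* had differences of −0.07 and −0.01 (limma adjusted p = 0.0963 and 0.952), and *GNA12* was lower with shRNA1 alone, at −0.10 (0.0302). The kinases *ROCK1* and *ROCK2*, which act on the actin cytoskeleton, had differences of −0.14 and −0.13 (limma adjusted p = 0.183 and 0.28).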

How the data were processed

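RNA-seq libraries of 9 DU145 samples, 3 per group, were prepared from poly(A) RNA with a stranded kit, and the authors aligned them with STAR and obtained FPKM per RefSeq transcript from Cufflinks. The deposited tables hold these FPKM values with lower and upper bounds, one table per library, on human hg38 loci per the labels, although the methods name a mouse build. No counts were used here, so depth was estimated from the bounds. Of 73240 accessions 72645 matched a RefSeq table (GRCh38.p14), transcripts were summed to 27902 genes, and 42 genes with a failed estimate were left out, among them the target *MYOF*.

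The 12509 genes averaging 1 FPKM or more over the libraries were tested with limma 3.58.1 (R 4.3.3) on log2(FPKM + 1), as 6 knockdown against 3 control libraries or as 3 groups sharing 1 estimate of the spread, and p-values were adjusted by Benjamini-Hochberg with calls under 0.05. Ratios used exact permutation tests over libraries (scipy 1.17.1). Lengths came from GENCODE transcripts. The code was tested on simulated data. Members and lists were chosen with earlier results of these data known. By rule all 10 members were named, and from other lists up to 4 genes (8 for targets) with the lowest p among those called with knockdown. Alternatives covered the pseudocount, filter, scaling, length trend, replicate block, prior trend, alternate loci, groups in the fit and leaving out each library. One list of lineage markers and one gene of the alternative Wnt list are not reported here.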

Additional observations from a re-analysis of the deposited data

Results flagged for a closer look

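The effect of the hairpins differed in the direct test of shRNA2 against shRNA1 for 6 genes, each of them lower with shRNA2 by limma. The log2 difference was −0.36 for *ANKRD1*, −0.27 for *YAP1*, −0.25 for *FZD6*, −0.19 for *CCN2*, −0.13 for *CCN1* and −0.11 for *AMOTL2*. Each gene was measured in 3 libraries per hairpin. Among the 9 fits without 1 library, the call was lost in 9 for *AMOTL2*, 8 each for *CCN1* and *CCN2* and 6 for *FZD6*. It was lost in 1 for *YAP1* and kept in all 9 for *ANKRD1*. No library stood apart from the other knockdown libraries by Dixon's test in the 11 measures tested over the 6 knockdown libraries, where chance alone gives 1 in 20, or 0.55 of the 11.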

How the results depend on the processing

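Of the differences of single genes under alternative settings, 963 kept their direction and their side of the threshold, 135 were no longer called, 10 became called and 25 changed sign, and the cause was not tested. Of those of the transcripts named, 58 did, 10 were no longer called and 1 changed sign. The part of depth in these changes was not tested either. With 3 libraries per group 1 library decides many calls.

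Genes called with knockdown numbered 2578 (1690 higher, 888 lower), 1626 (829 higher, 797 lower) with the length trend removed, 2105 (1047 higher, 1058 lower) with quantile normalization, and 926 to 3231 without 1 library. With shRNA1 there were 2357 (1458 higher, 899 lower), with 827 higher and 1054 lower after quantile normalization, 771 and 811 with the length trend removed, and 883 to 3525 without 1 library. With shRNA2 there were 3335 (1913 higher, 1422 lower), with 1396 higher and 1560 lower with the length trend removed, 2117 in the fit of these groups only, and 2053 to 4180 without 1 library. Between the hairpins there were 839, with 337 in the fit of these groups only and 323 to 1160 without 1 library. Among transcripts 417 were called, 1256 with a filter of 5 FPKM and 39 to 595 without 1 library.

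The log2 difference in the ratio of *WWTR1* to *YAP1* was 0.12 to 0.17 without 1 library, of *TEAD4* to *TEAD1* 0.37 to 0.44, and of *LATS2* to *LATS1* −0.14 to −0.10, the last at −0.13 (exact permutation p = 0.0714) with a pseudocount of 0.01.

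These uncalled differences changed sign. With the length trend removed *LATS1* was at 0.0241 with knockdown, 0.0334 with shRNA1 and 0.0148 with shRNA2, *CCN1* at −0.0255 and *ANKRD1* at −0.0515 with shRNA2, and *TEAD4* at 0.0091 between the hairpins. With quantile normalization *AMOTL2* was at −0.0167 with shRNA1, *ANKRD1* at −0.006 with shRNA2 and *TEAD4* at 0.0137 between the hairpins, where median centring gave 0.0052. Without 1 library *CCN2* ran from −0.0285 to 0.0248 with knockdown. *LATS1* ran from −0.0819 to 0.0066 with shRNA1, from −0.1177 to 0.0132 with shRNA2 and from −0.078 to 0.0529 between the hairpins. *ANKRD1* ran from −0.0064 to 0.0541 with shRNA2, *TEAD1* from −0.1194 to 0.0576 and *TEAD4* from −0.027 to 0.0255 between the hairpins, and the *YAP1* transcript NM_001282100 from −0.3487 to 0.2308 with knockdown.

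Libraries with the same replicate number had correlations of their deviations from −0.071 to 0.111, so the numbers did not pair them. With the replicate number as a block the counts were 2377, 2525, 3558 and 802 in the order above, *LLGL2* with knockdown was not called (limma adjusted p = 0.0785), nor were *CCN1* and *AMOTL2* between the hairpins, and *TEAD1* was called with shRNA1 (0.0427).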
